A study of Mus musculus with 9 samples.

Results

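Interferon regulatory factors (IRFs) were followed through circulating monocytes of mice that lacked the chemokine receptor CCR2 or its ligand CCL2. The 8 genes Irf1, Irf2, Irf3, Irf4, Irf5, Irf7, Irf8 and Irf9 were picked by symbol in the array's probe annotation, out of 19938 genes read through 1 symbol. Blood monocytes were purified from Ccr2-/-, Ccl2-/- and wild type Balb/c mice, all free of tumors and 14 to 18 weeks old, and their RNA was read on Affymetrix Mouse Gene 1.0 ST arrays, where probes lie along the whole transcript of a gene. Each genotype had 3 arrays, 9 in all, and each array held RNA pooled from 5 mice, so the spread between arrays is a spread between pools. Both deletions were germline, and the sex of the mice was not given. Cells with MHC class II, CCR3, Ly-6G, B220, CD8 or CD4 on their surface were removed before CD11b-positive cells were selected. The study defined these monocytes as negative for NK1.1 and CD11c as well, although neither is named among the antibodies used for the depletion.

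IRFs share a DNA-binding domain that recognizes GAAA repeats, the core of the interferon-stimulated response element (ISRE). IRF3, IRF5 and IRF7 are latent in resting cells and are switched on downstream of toll-like receptors and cytosolic nucleic acid sensors, IRF9 joins STAT proteins to form the complex that carries the type I interferon signal, IRF1 and IRF2 act as activator and competitor at the same sites, and IRF4 and IRF8 work with partners such as PU.1 in the development of monocytes, dendritic cells and lymphocytes. In monocytes, IRF8 is required for commitment to the lineage, and IRF4 accompanies dendritic cell differentiation and alternative activation.

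Compared to wild type, Ccr2-/- monocytes had reduced levels of Irf4, Irf5, Irf7 and Irf9, to 0.321-fold, 0.665-fold, 0.668-fold and 0.730-fold of the wild type level. No IRF gene was called changed in Ccl2-/- monocytes, where Irf4 measured 0.472-fold of wild type without overlap (limma adjusted p = 0.141). Irf4 passed there in 1 of 17 alternatives, without Ccl2-/- replicate 3 (limma adjusted p = 0.0233). Without Ccl2-/- replicate 1 its log2 difference shrank from -1.08 to -0.75. Set directly against Ccl2-/- monocytes, Ccr2-/- monocytes had less Irf5, Irf7 and Irf9, but all 3 calls were lost after centring each array on its median, and Irf5 and Irf9 passed in 5 of 17 alternatives each. For Irf4 the Ccl2-/- arrays were spread too widely to separate the knockouts. Irf1, in the brighter of its 2 transcript clusters, Irf2 and Irf3 read between 0.927-fold and 1.08-fold of wild type in both knockouts, without passing the test. The dimmer Irf1 cluster lay above wild type, by a log2 difference of 0.40 in Ccr2-/- and 0.45 in Ccl2-/- monocytes. Irf8 read 1.25-fold of wild type in Ccr2-/- monocytes, also without passing the test. From heat maps of these same samples, the study described Irf4 as reduced in Ccl2-/- monocytes, within a shift that was stronger in Ccr2-/- monocytes. Without further symbols, it described interferon regulatory factors as lower in Ccr2-/- but not in Ccl2-/- monocytes. Its statement on Irf4 in Ccl2-/- monocytes had no limma call here, although every Ccl2-/- array lay below every wild type array. The 4 calls are therefore not independent evidence of a direction.

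The promoters are shown because the members that moved together differ in how their own start regions are built. RefSeq windows (GRCm38.p6) of 300 bases, 250 before and 50 after the start, were found for all 8 genes, and Irf1, Irf8 and Irf9 have 2 windows each, of which the upstream one was used. The upstream 250 bases of the 4 genes called lower in Ccr2-/- monocytes follow, with those of Irf8, which lay furthest above wild type there without being called. Capitals mark matches to the TATA box, searched as TATAAA, or to GAS, the element bound by STAT dimers, searched as TTCNNNGAA.
Irf4, chr13:30748983-30749232, plus strand: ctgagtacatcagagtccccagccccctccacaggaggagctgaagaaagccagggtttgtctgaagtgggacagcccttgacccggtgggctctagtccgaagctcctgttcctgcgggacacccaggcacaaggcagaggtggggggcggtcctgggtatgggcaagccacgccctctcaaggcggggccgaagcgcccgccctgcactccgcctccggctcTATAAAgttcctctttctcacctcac
Irf5, chr6:29526375-29526624, plus strand: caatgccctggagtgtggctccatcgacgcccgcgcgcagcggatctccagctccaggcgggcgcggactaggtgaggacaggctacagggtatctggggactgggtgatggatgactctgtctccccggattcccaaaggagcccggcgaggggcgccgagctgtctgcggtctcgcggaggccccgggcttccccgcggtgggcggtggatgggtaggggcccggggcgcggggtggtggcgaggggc
Irf7, chr7:141266425-141266674, minus strand: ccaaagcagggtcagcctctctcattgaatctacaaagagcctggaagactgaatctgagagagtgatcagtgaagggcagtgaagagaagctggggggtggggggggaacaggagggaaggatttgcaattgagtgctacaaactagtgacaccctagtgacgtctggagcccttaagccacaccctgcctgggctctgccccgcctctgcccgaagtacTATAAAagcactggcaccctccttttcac
Irf9, chr14:55603735-55603984, plus strand: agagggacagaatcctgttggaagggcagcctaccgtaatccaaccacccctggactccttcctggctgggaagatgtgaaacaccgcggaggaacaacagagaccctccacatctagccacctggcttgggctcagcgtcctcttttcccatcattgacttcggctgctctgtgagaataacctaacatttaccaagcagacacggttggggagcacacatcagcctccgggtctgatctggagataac
Irf8, chr8:120736108-120736357, plus strand: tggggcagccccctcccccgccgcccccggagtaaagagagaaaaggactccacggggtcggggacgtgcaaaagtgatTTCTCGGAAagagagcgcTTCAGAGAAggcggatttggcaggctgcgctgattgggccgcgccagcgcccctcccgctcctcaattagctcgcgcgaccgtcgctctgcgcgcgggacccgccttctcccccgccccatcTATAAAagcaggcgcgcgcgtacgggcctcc
The stretch shown for Irf5 and that for Irf7 lie at least partly inside the span that RefSeq gives the gene.

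Each motif was searched on both strands of the whole window, and no match of one motif overlapped that of another. TATAAA occurred in Irf4, Irf7 and Irf8, at positions -26, -29 and -31 from the start, and in 13.6% of all 32851 windows. TTCNNNGAA was found at -90 in Irf1, at -224 in Irf2, and at -171 and -153 in Irf8, against 8.3% of all windows. GAAANNGAAA, the ISRE core, was found in 1 member, Irf2, at -241, and in 3.44% of all windows. GGGCGG, the GC box, occurred in 6 of the 8 windows, every one but those of Irf7 and Irf9, and in 35.7% of all windows, with 5 matches in Irf5, 2 of which share a base. The GC share ran between 55.0% in Irf7 and 74.7% in Irf5, against a median of 52.7% over all windows. None of the 4 members called lower had a GAS or ISRE match in its window, which says only that these letters are not there.

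**Figure D1:**
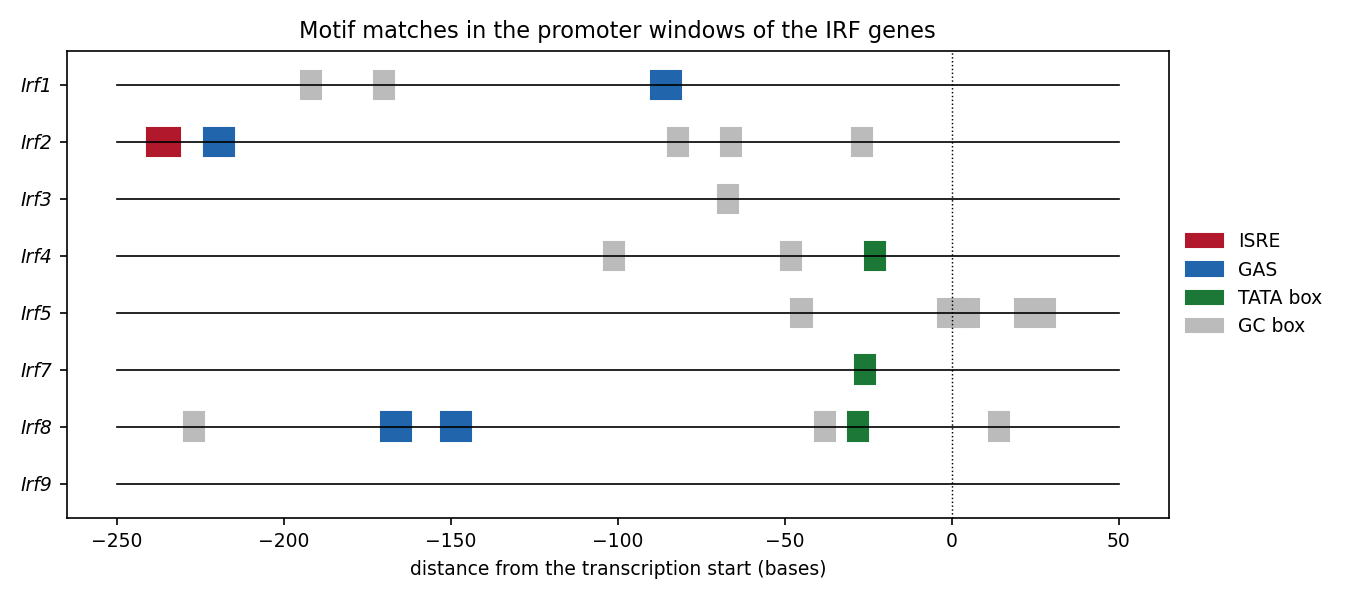
Motif matches (coloured boxes) along the promoter window of each of the 8 IRF genes, with the distance from the transcription start in bases on the x axis. GAS matches (blue) lie in Irf1, Irf2 and Irf8, TATA boxes (green) in Irf4, Irf7 and Irf8, the 1 ISRE match (red) in Irf2, and Irf9 has no match.

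The arrays were first checked as a set. Ccr2 had a log2 intensity of 9.44 ± 0.03 in Ccr2-/-, 12.76 ± 0.17 in Ccl2-/- and 13.09 ± 0.15 in wild type monocytes (SD, n = 3 arrays each). The Ccl2 probe set read 8.81 ± 0.15 in Ccr2-/-, 9.45 ± 0.36 in Ccl2-/- and 8.98 ± 0.21 in wild type monocytes, so it does not mark the deletion and checks nothing. Ccl2-/- replicate 1 stood apart, with a median intensity over all genes of 498 against 378 to 422 on the other 8 arrays and a mean correlation of 0.972 with its own group. Of 19938 genes, 4.91% were called higher and 8.38% lower in Ccr2-/- than in wild type monocytes (limma, adjusted p under 0.05), and with quantile-normalized values 48.9% of the calls were higher in place of 36.9%.

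IRF7, which drives the amplification of type I interferon production, separated Ccr2-/- monocytes from both other genotypes. Irf7 had linear intensities of 3919, 3832 and 3879 in the 3 Ccr2-/- arrays, of 5991, 5476 and 6681 in the Ccl2-/- arrays, and of 5479.7, 5836 and 6112 in the wild type arrays. All 3 Ccr2-/- arrays lay below every other array, and the Ccl2-/- and wild type arrays overlapped. Ccr2-/- monocytes held 0.668-fold of the wild type level, a log2 difference of -0.58 (SE 0.08, limma adjusted p = 0.00258). In Ccl2-/- monocytes the log2 difference to wild type was 0.06, with a 95% confidence interval of -0.14 to 0.25 (limma adjusted p = 0.742), and it was -0.06 after centring each array on its median.

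IRF5, which acts downstream of MyD88 in the induction of inflammatory cytokines, took an intermediate level in Ccl2-/- monocytes. Its intensities were 3635, 4048 and 4275 in Ccr2-/-, 5067, 5061 and 5829 in Ccl2-/-, and 6052, 5883 and 5999.6 in wild type arrays. The 3 genotypes did not overlap, although Ccl2-/- replicate 3 came within a few percent of the lowest wild type array. Ccr2-/- monocytes had 0.665-fold of the wild type level (log2 difference -0.59, SE 0.09, limma adjusted p = 0.00263) and Ccl2-/- monocytes 0.888-fold, where the log2 difference of -0.17 did not pass the test (interval -0.37 to 0.02, limma adjusted p = 0.435).

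IRF3, the constitutively expressed factor that starts the first wave of interferon-beta, gave no call. Irf3 measured 2203, 2492 and 2392 in Ccr2-/-, 2177, 2192.5 and 2126 in Ccl2-/-, and 2164, 2181 and 2203 in wild type arrays. Ccr2-/- replicates 2 and 3 lay above all wild type arrays and replicate 1 did not. The log2 difference to wild type was 0.11 in Ccr2-/- monocytes (interval -0.04 to 0.26, limma adjusted p = 0.392) and -0.01 in Ccl2-/- monocytes (interval -0.16 to 0.14, limma adjusted p = 0.932).

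IRF9, the DNA-binding subunit of the type I interferon signal, had closely spaced replicates. Irf9 measured 2980.1, 2942 and 3039 in Ccr2-/-, 3540, 3485 and 3681 in Ccl2-/-, and 4084, 4094 and 4101 in wild type arrays. The genotypes formed 3 separate groups in the order Ccr2-/-, Ccl2-/- and wild type. Ccr2-/- monocytes had 0.730-fold of the wild type level (log2 difference -0.45, SE 0.06, limma adjusted p = 0.00132). In Ccl2-/- monocytes it was 0.872-fold (log2 difference -0.20, interval -0.33 to -0.07), which had an unadjusted p of 0.00740 and a limma adjusted p of 0.198 over all genes.

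IRF1, an activator induced by interferon gamma, and IRF2, which competes with it, differed little. Irf1 measured 3900.3, 3649 and 3944 in Ccr2-/-, 3557, 3628 and 3329 in Ccl2-/-, and 3579.9, 3837 and 3448 in wild type arrays, and the knockouts each overlapped wild type. The log2 difference to wild type was 0.08 in Ccr2-/- (interval -0.08 to 0.24, limma adjusted p = 0.646) and -0.05 in Ccl2-/- monocytes (interval -0.21 to 0.12, limma adjusted p = 0.739). A second, dimmer transcript cluster annotated to Irf1 read 616, 609 and 591 in Ccr2-/-, 799, 625 and 499 in Ccl2-/-, and 449, 484 and 447 in wild type arrays. Every knockout array lay above every wild type array there, with log2 differences of 0.40 in Ccr2-/- and 0.45 in Ccl2-/- monocytes, so that in Ccr2-/- monocytes both clusters lay above wild type, and in Ccl2-/- monocytes the sign depends on the cluster read. In Ccr2-/- against Ccl2-/- monocytes it does too, with a log2 difference of 0.13 in the brighter cluster and -0.06 in the dimmer one. Irf2 measured 4034, 3964 and 3901 in Ccr2-/-, 4415, 4161 and 4406 in Ccl2-/-, and 4234, 4353 and 4242 in wild type arrays. Its Ccr2-/- arrays all lay below the wild type arrays, but the log2 difference of -0.11 did not pass the test (interval -0.24 to 0.02, limma adjusted p = 0.339), and in Ccl2-/- monocytes the difference was 0.02 (interval -0.12 to 0.15, limma adjusted p = 0.892), or -0.10 after centring.

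IRF4 had the widest fold differences to wild type in the family. Irf4 measured 449, 547 and 493 in Ccr2-/-, 457, 771 and 1089.5 in Ccl2-/-, and 1667, 1474 and 1489 in wild type arrays. Both knockouts lay below wild type on every array, and the Ccl2-/- arrays reached from the Ccr2-/- level, in replicate 1, up toward the wild type level, in replicate 3. Ccr2-/- monocytes had 0.321-fold of the wild type level (log2 difference -1.64, SE 0.27, limma adjusted p = 0.00430). In Ccl2-/- monocytes the level was 0.472-fold, with a log2 difference of -1.08 (interval -1.69 to -0.48, unadjusted p = 0.0032) that missed the threshold over all genes (limma adjusted p = 0.141). That value rested on single arrays: without Ccl2-/- replicate 3 it was -1.38 (limma adjusted p = 0.0233), and without Ccl2-/- replicate 1 it was -0.75 (limma adjusted p = 0.106).

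IRF8, the factor required for monocyte commitment, lay on the other side of wild type. Irf8 measured 7166, 7771 and 7919.9 in Ccr2-/-, 7847, 7043 and 5957 in Ccl2-/-, and 5624, 6676 and 5948 in wild type arrays. Every Ccr2-/- array was above every wild type array, and the Ccl2-/- arrays spread over the range of both. The Ccr2-/- level was 1.25-fold of wild type (log2 difference 0.33, interval 0.07 to 0.58, unadjusted p = 0.0187), which did not pass over all genes (limma adjusted p = 0.106). It passed without Ccl2-/- replicate 1, an array that enters only through the shared spread (limma adjusted p = 0.0425), when only the 6 arrays compared were fitted (limma adjusted p = 0.0382), and with an intensity trend in the variances (also 0.0382). In Ccl2-/- monocytes the log2 difference was 0.19 (interval -0.07 to 0.44, limma adjusted p = 0.485).

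**Figure D2:**
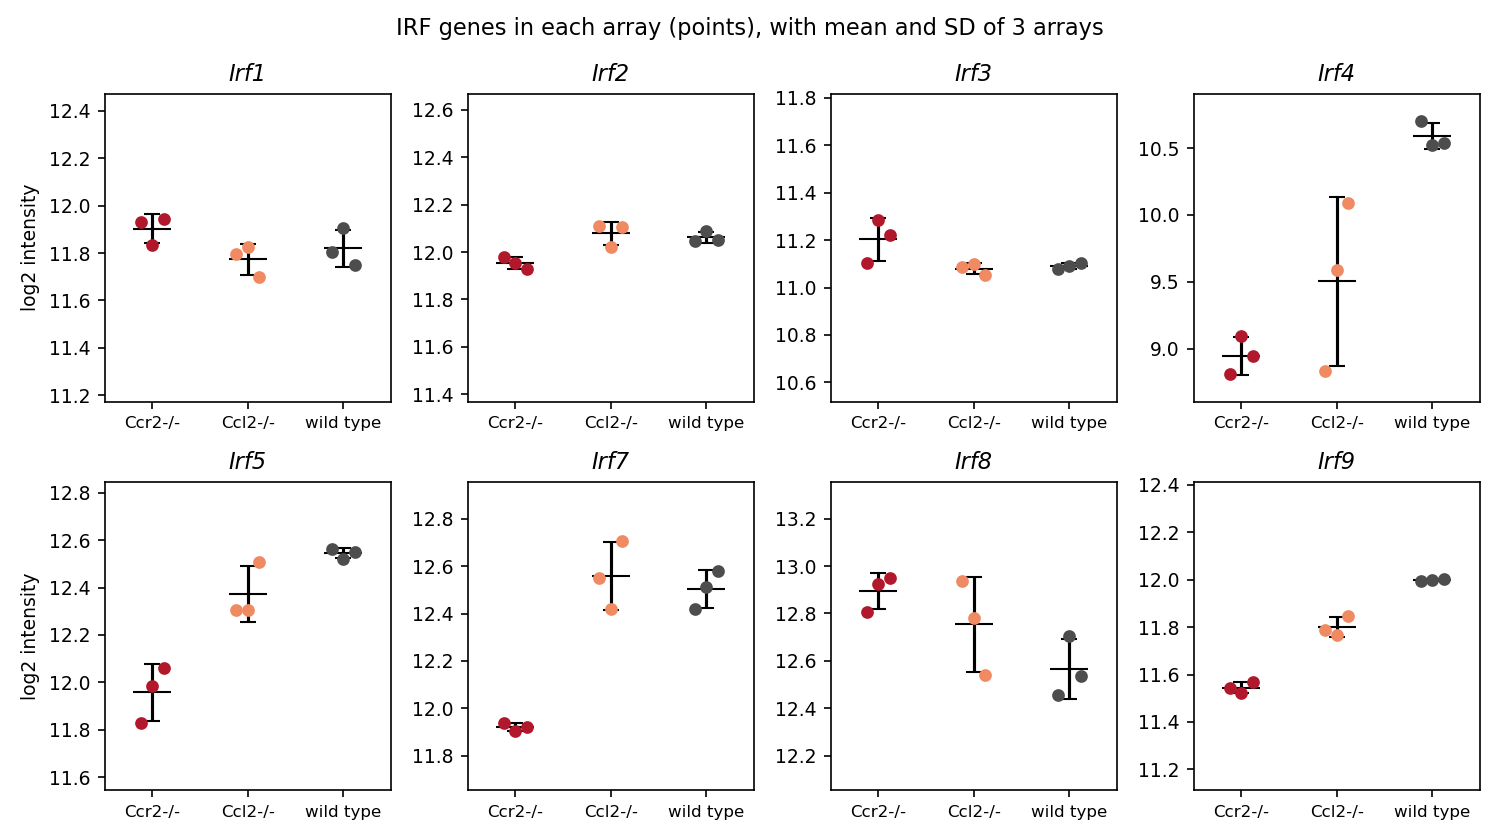
Log2 intensity (y axis) of the 8 IRF genes in each of the 9 arrays, with Ccr2-/- in red, Ccl2-/- in orange and wild type in grey, and the mean and SD of 3 arrays in black. Every panel spans the same log2 range except that of Irf4, which is taller. Irf5, Irf7 and Irf9 sit lowest in all Ccr2-/- arrays, Irf4 in those and in Ccl2-/- replicate 1, Irf7 overlaps between the other genotypes, and the Ccl2-/- arrays of Irf4 are spread over more than 1 log2 unit.

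Taking the family as a list, 4 of 8 members were lower in Ccr2-/- than in wild type monocytes against 8.38% of all genes, and 0 of 8 were higher against 4.91% (limma), and 5 of 8 had an unadjusted p under 0.05, against 23.2% of all genes. The groups did not overlap in 6 of 8 members, against 33.9% of all genes. The size limits named in the methods section, 1.2 for the ratio and 100 for the difference of group means, were passed by 5 members, Irf8 included, against 15.8% of all genes. The median log2 difference was -0.28 over the 8 members and 0.01 over all genes. In Ccl2-/- against wild type monocytes, limma called 0 of 8 members in either direction, where 0.0752% of all genes were higher and 0.0853% lower, and 2 members, Irf4 and Irf9, had an unadjusted p under 0.05, against 13.1% of all genes. Here 3 members did not overlap wild type, Irf4, Irf5 and Irf9, against 18.7% of all genes, and 1 member, Irf4, passed the size limits, against 11.6%. The members' median was -0.03, beside 0.08 over all genes, a genome-wide shift from which centring each array on its median takes 0.11. Both comparisons share the wild type arrays, so their values are not independent of each other.

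Whether the knockouts themselves differed was tested by setting Ccr2-/- directly against Ccl2-/- monocytes. Irf7 was 0.643-fold (log2 difference -0.64, SE 0.08, limma adjusted p = 0.0148), Irf5 0.749-fold (-0.42, SE 0.09, limma adjusted p = 0.0395) and Irf9 0.837-fold (-0.26, SE 0.06, limma adjusted p = 0.0480) of the Ccl2-/- level. These 3 lower calls stood against 2.87% of all genes lower, and 0 of 8 members were higher against 0.732% of all genes. Of all genes called here 20.3% were higher, and 71.6% when each array was centred on its median. The groups did not overlap in 6 members, every one but Irf4 and Irf8, against 23.6% of all genes, and Irf4, Irf5 and Irf7 passed the size limits, against 12.6%. For Irf4 the log2 difference of -0.56 had an interval of -1.16 to 0.05 (limma adjusted p = 0.310), and without Ccl2-/- replicate 1 it was -0.89 (limma adjusted p = 0.0171). Irf1, Irf2, Irf3 and Irf8 differed by 0.13 (interval -0.03 to 0.29), -0.13 (interval -0.26 to 0.01), 0.12 (interval -0.03 to 0.27) and 0.14 (interval -0.12 to 0.40) on the log2 scale. The count was fragile: it was 0 after centring, in the fit of the 6 arrays compared and without Ccr2-/- replicate 1 or replicate 2, and 1, Irf7, without Ccr2-/- replicate 3, Ccl2-/- replicate 2 or 3, or any single wild type array. Without Ccl2-/- replicate 1 it was 4, Irf4 included.

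**Figure D3:**
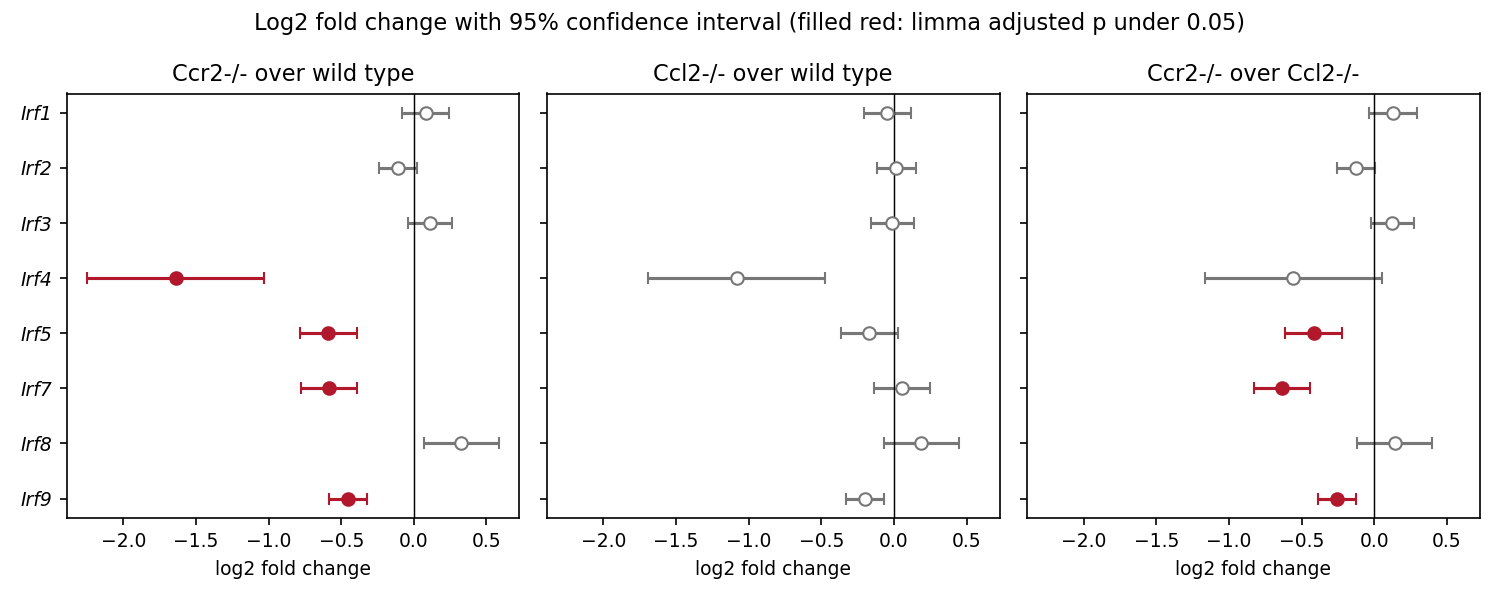
Log2 fold change (x axis) of the 8 IRF genes in the 3 comparisons, with 95% confidence intervals; filled red points passed limma's adjusted p under 0.05. In Ccr2-/- over wild type 4 points are filled, in Ccl2-/- over wild type none, and in Ccr2-/- over Ccl2-/- those of Irf5, Irf7 and Irf9.

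The other genes of the IRF pathway were read from 9 lists, 105 measured genes in all, of which 52 were lower and 8 higher in Ccr2-/- than in wild type monocytes, against 8.38% and 4.91% of all genes. In Ccl2-/- monocytes 1 of the 105 was called, Xaf1, an interferon-induced promoter of cell death, which was higher, against 0.0752% of all genes, and 32 had an unadjusted p under 0.05, against 13.1%. Without Ccl2-/- replicate 3 the calls were 12, without Ccl2-/- replicate 1 they were 3, and without Ccl2-/- replicate 2 or any single Ccr2-/- or wild type array they were 0. Set directly against Ccl2-/-, 28 were lower and 0 higher in Ccr2-/- monocytes, against 2.87% and 0.732% of all genes, with 54 at an unadjusted p under 0.05, against 18.6% (limma in each case). The 28 calls of the direct comparison became 6 after centring, 3 in the fit of the 6 arrays compared, 14 with the replicate block, and between 4 and 38 with single arrays left out, with 4 without Ccr2-/- replicate 1 or 2, 11 without Ccr2-/- replicate 3, 14 to 17 without Ccl2-/- replicate 2 or 3 or any wild type array, and 38 without Ccl2-/- replicate 1. Among 8 interferon receptor and JAK-STAT genes, 3 were lower in Ccr2-/- monocytes: Ifngr2, a chain of the interferon gamma receptor (0.618-fold), Stat2, the partner of IRF9 (0.670-fold), and Ifnar2, a chain of the type I receptor (0.729-fold). Ifngr2 read 3629.8, 4045 and 4112 in Ccr2-/-, 5262, 5337 and 6154 in Ccl2-/-, and 6483, 6157 and 6414 in wild type arrays, and Stat2 read 1731, 1637 and 1567 in Ccr2-/-, 2194, 2048 and 2371 in Ccl2-/-, and 2329, 2472 and 2565 in wild type arrays. For Ifngr2 the 3 genotypes did not overlap, and for Stat2 Ccl2-/- replicate 3 reached into the wild type range. The kinase Jak1, named after its value was seen, was higher (1.29-fold). The count for this list was 2 after centring each array on its median.

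Sensors, adaptors and kinases upstream of the IRFs had 9 of 19 members lower and 0 higher in Ccr2-/- than in wild type monocytes, with a median of 0.838-fold. Over all genes 8.38% were lower and 4.91% higher in this comparison. Tlr8, an endosomal receptor for RNA, was 0.627-fold of wild type, Ticam2, an adaptor of TLR4, 0.567-fold, and Unc93b1, the chaperone that brings nucleic acid receptors to the endosome, 0.655-fold. Tlr8 read 2915, 2966 and 2974 in Ccr2-/-, 4326, 3979 and 4775 in Ccl2-/-, and 4883, 4503 and 4750.01 in wild type arrays, so that Ccr2-/- arrays were again below all others. The count was 6 after centring and 0 of 19 in Ccl2-/- monocytes. DNA-binding partners of IRF4 and IRF8 gave 2 of 10 higher, Tcf3 (1.26-fold) and Ikzf1 (1.18-fold), and 1 lower, Spi1, which encodes PU.1 (0.812-fold), but 0 after centring. That 1 lower gene of 10 is near the 8.38% of all genes. Of 9 proteins that bind or restrain IRFs, 4 were higher and 3 lower. Socs1, a feedback inhibitor of JAK kinases, was 1.74-fold, Swap70, a relative of the IRF4-binding protein Def6, 0.630-fold, and Trim30a 0.802-fold of wild type. The others, named after their values were seen, were Irf2bp1, Irf2bpl and Def6 (1.25-fold to 1.34-fold) and Irf2bp2 (0.798-fold), and the count was 3 after centring and 1 without wild type replicate 3.

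Genes that lie downstream were led by the type I interferon-stimulated genes. Of these, 18 of 18 were lower in Ccr2-/- than in wild type monocytes, against 8.38% of all genes, with a median of 0.436-fold. Dhx58, a regulator of RNA sensing, read 847, 816 and 796 in Ccr2-/-, 1168, 1319 and 1592 in Ccl2-/-, and 1823, 1897 and 1917 in wild type arrays, and the Ccr2-/- level was 0.436-fold that of wild type (limma adjusted p = 0.000579). Oasl2, an oligoadenylate synthetase-like gene, read 1265, 1199 and 1090.2 in Ccr2-/-, 2863, 2881 and 3725 in Ccl2-/-, and 2763, 3613 and 3311 in wild type arrays, with the Ccr2-/- level at 0.368-fold that of wild type (limma adjusted p = 0.000653), and Oasl1 was at 0.383-fold. For Oasl2 the Ccl2-/- and wild type arrays overlapped, and for Dhx58 they did not. Set directly against Ccl2-/-, 14 of the 18 were lower in Ccr2-/- monocytes, against 2.87% of all genes. The count of 14 was 3 in the fit of the 6 arrays compared, 6 after centring, 9 with the replicate block, 4 without Ccr2-/- replicate 1 or 2, and 7 without Ccr2-/- replicate 3. In Ccl2-/- monocytes the list had a median of 0.811-fold and its 1 call was Xaf1, at 2074, 1997 and 2491 in Ccl2-/- against 1086, 1162 and 1282 in wild type arrays. That count was 0 after centring, in the fit of the 6 arrays compared, with the replicate block, and without Ccl2-/- replicate 2 or any single Ccr2-/- or wild type array, and it was 4 without Ccl2-/- replicate 3 and 2 with an intensity trend.

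Lists tied to single IRF genes had smaller shares of members past the test than the type I interferon-stimulated genes. Over all genes 8.38% were lower and 4.91% higher in Ccr2-/- than in wild type monocytes. Interferon gamma and IRF1 target genes had 6 of 15 lower and 0 higher in Ccr2-/- monocytes, among them the chemokine Cxcl9 (0.343-fold), the cytokine Il15 (0.498-fold) and the GTPase Irgm1 (0.647-fold), while the median of the list was 0.881-fold. Cxcl9 read 238, 229 and 270.2 in Ccr2-/-, 375, 298 and 358 in Ccl2-/-, and 723, 868 and 583 in wild type arrays, with both knockouts below every wild type array. Alternative activation genes linked to IRF4 had 5 of 11 lower and 0 higher, with a list median of 0.962-fold. The lectins Clec10a (0.254-fold), Mgl2 (0.568-fold) and Mrc1 (0.546-fold) were in front, followed by Ccl24 (0.422-fold) and Chil3 (0.288-fold), which were named after their values were seen. The other 6, named in the same way, did not pass the test. Retnla (1.29-fold), Arg1 (1.11-fold) and Pdcd1lg2 (1.02-fold) lay above wild type, and Kdm6b (0.995-fold), Ccl22 (0.973-fold) and Ccl17 (0.962-fold) below it. Clec10a read 115, 112 and 143 in Ccr2-/-, 181, 269.8 and 342 in Ccl2-/-, and 552, 507 and 405 in wild type arrays, which places the Ccl2-/- arrays between the other genotypes without overlap. Monocyte genes linked to IRF8 had 6 of 7 lower, with the protease Ctss at 0.737-fold, the cytokine Il18 at 0.408-fold and the growth factor receptor Csf1r at 0.776-fold, although Irf8 itself lay above wild type. That count was 2 after centring. Of 8 interferon genes, Ifng, the NK and T cell interferon, was higher (1.80-fold) and Ifnab lower (0.660-fold), and the other 6 did not pass.

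**Figure D4:**
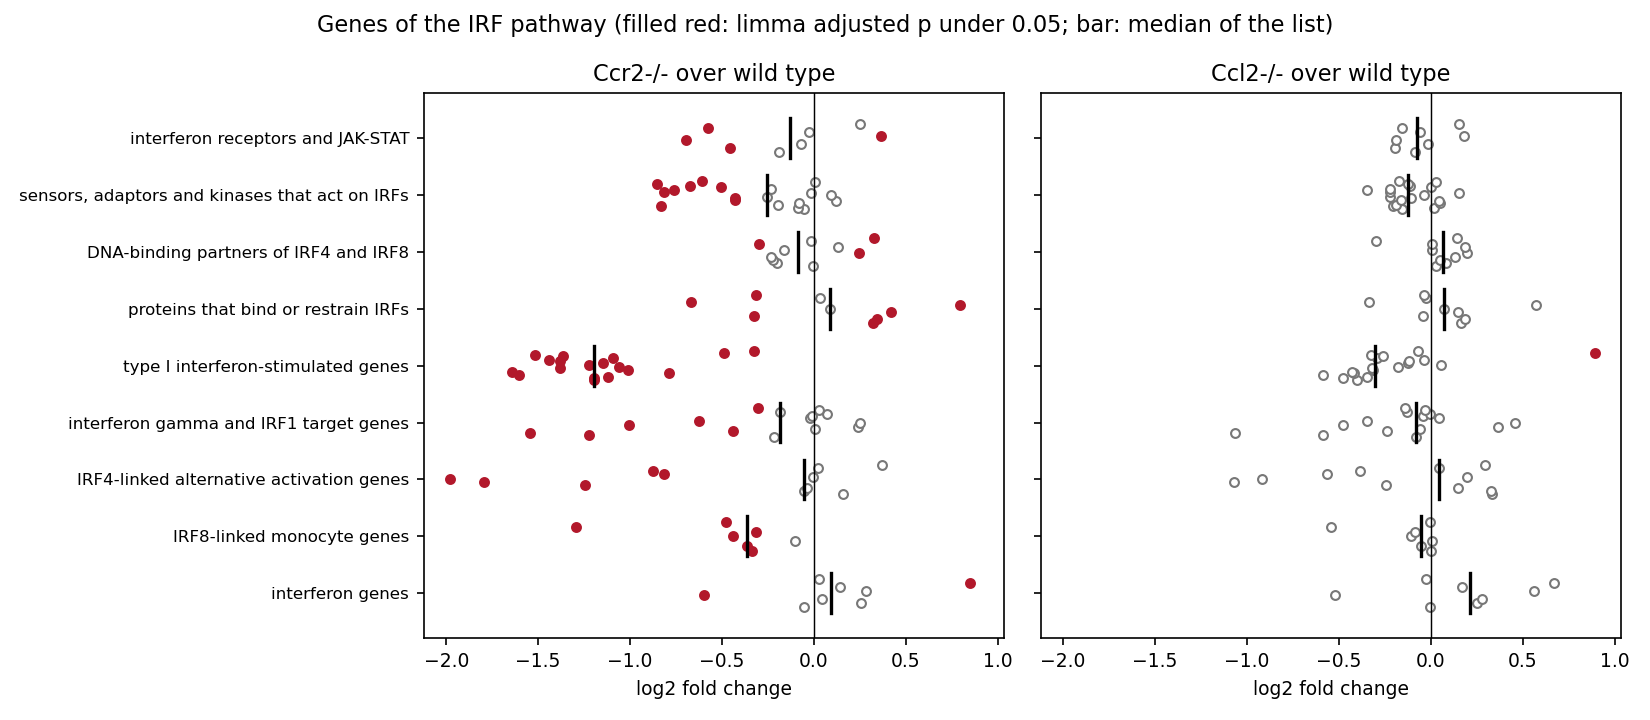
Log2 fold change (x axis) of each gene in the 9 pathway lists (rows), in Ccr2-/- over wild type on the left and Ccl2-/- over wild type on the right; red points passed limma's adjusted p under 0.05 and the black bar is the median of the list. In Ccr2-/- monocytes all 18 type I interferon-stimulated genes lie left of 0 and are filled, and in Ccl2-/- monocytes 1 gene, Xaf1, is filled.

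Markers of Ly-6Chi monocytes and of NK cells also differed between the genotypes. Beside the marker counts below, 8.38% of all genes were lower and 4.91% higher in Ccr2-/- than in wild type monocytes. In bulk samples, fewer cells of a type and less RNA per cell cannot be told apart from the arrays alone. By flow cytometry, the study found a similar share of blood monocytes in every genotype and fewer Ly-6Chi monocytes in both knockouts. How much of the marker levels this accounts for was not tested. Ly-6Chi monocyte markers were lower in Ccr2-/- than in wild type monocytes in 6 of 6 measured genes, with a summed intensity of 14103 to 15426 in Ccr2-/-, 21817 to 25159 in Ccl2-/- and 29772 to 35630.4 in wild type arrays. Ly-6Clo monocyte markers were higher in 2 of 10, Cd9 and Spn, with a median of 1.03-fold and sums of 54299 to 57481 in Ccr2-/-, 57816 to 63520 in Ccl2-/- and 48837 to 58378 in wild type arrays, so that the Ccr2-/- sums lay inside the wild type range. NK cell markers were higher in 13 of 13, with sums of 101284 to 104353 in Ccr2-/-, 74942 to 89871 in Ccl2-/- and 60323 to 65676 in wild type arrays. Pan-monocyte markers were lower in 5 of 7, and the sums ran 38447 to 41743 in Ccr2-/-, 45461 to 49728 in Ccl2-/- and 48044 to 50507 in wild type arrays. Csf1r and Cd68, both lower, also stand in the list of monocyte genes linked to IRF8, so the counts of these lists share genes. The Ly-6Chi sum ordered the genotypes as Irf5 and Irf9 did and the NK sum the other way round. By group means, Irf7 had neither order, with its highest mean in Ccl2-/- monocytes, although its Ccl2-/- and wild type arrays overlapped. Irf8 had the order of the NK sum. Among the Ccl2-/- arrays, replicate 3 had the highest Irf4, the highest Ly-6Chi sum and the lowest NK sum, while replicate 1, with the lowest Irf4, had a slightly higher Ly-6Chi sum than replicate 2 (22011 against 21817). No marker of any list was at 0, and the part of the cell mixture in the IRF levels was not tested.

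Dendritic cells and lymphocytes, which carry much IRF4, IRF7 or IRF8, were read through their own markers. Plasmacytoid dendritic cell markers were lower in Ccr2-/- than in wild type monocytes in 2 of 7, Pld4 and Tcf4, against 8.38% of all genes. Their sums were 12096 to 12855 in Ccr2-/-, 14223 to 15620 in Ccl2-/- and 15116 to 15781 in wild type arrays. Pld4 alone read 8240, 8823 and 8894 in Ccr2-/-, 10653, 10183 and 11121 in Ccl2-/-, and 11330, 11261 and 10916 in wild type arrays. Most of each sum is thus the level of Pld4. The defining marker Siglech had a log2 difference of 0.12 to wild type (limma adjusted p = 0.863). Conventional dendritic cell markers were lower in 3 of 10, Flt3, Cd74 and Cd209a, with sums of 6569.6 to 7549 in Ccr2-/-, 7328 to 10283 in Ccl2-/- and 10868 to 14140.4 in wild type arrays. The other 7 did not pass the test in Ccr2-/- against wild type monocytes. Of these, Itgae (1.164-fold), Xcr1 (1.140-fold) and Zbtb46 (1.099-fold) lay above wild type. Clec9a (0.973-fold) and the class II genes H2-Eb1 (0.870-fold), H2-Ab1 (0.517-fold) and H2-Aa (0.499-fold) lay below it. B cell markers had 1 of 9 higher, Cd22, and T cell markers 0 of 10 in either direction, against 4.91% of all genes higher and 8.38% lower. Their part in the levels of Irf4, Irf7 and Irf8 was not tested.

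**Figure D5:**
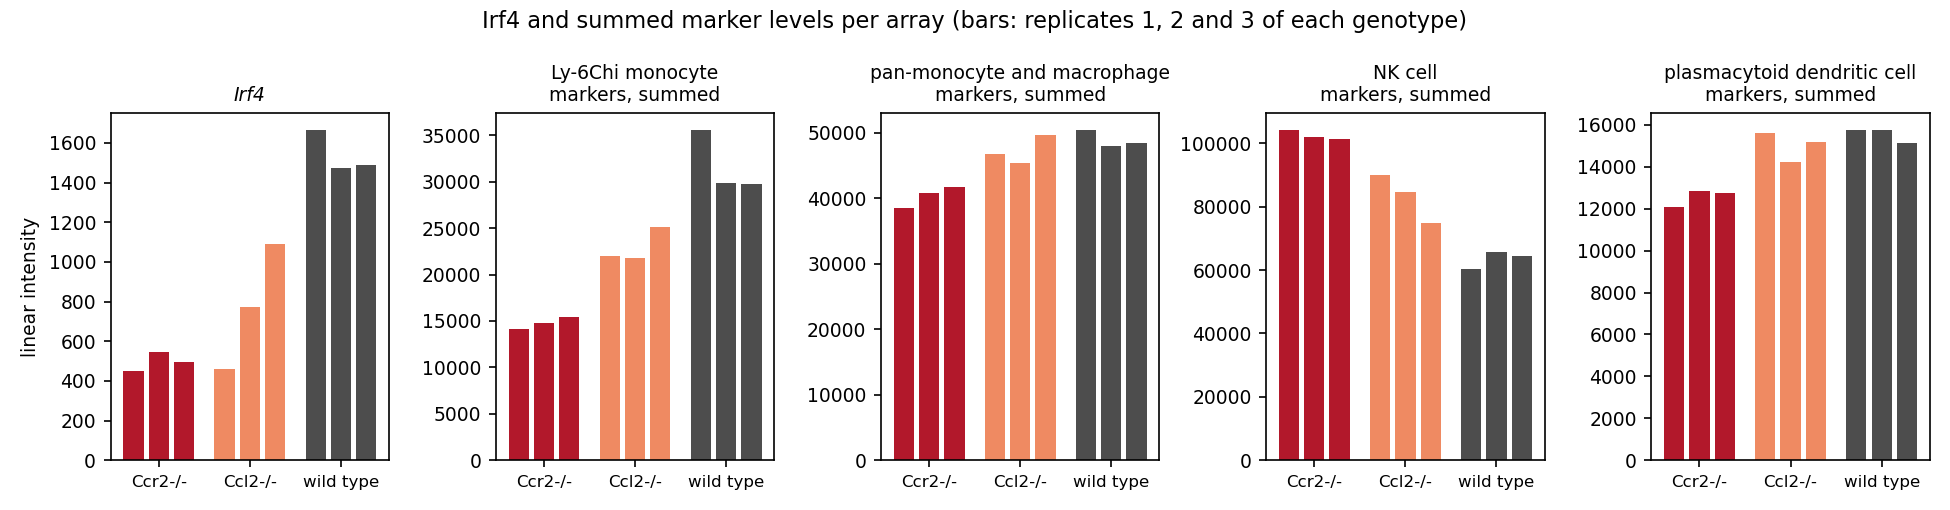
Linear intensity of Irf4 and summed linear intensity of 4 marker lists (y axes, from 0) on each of the 9 arrays, with replicates 1, 2 and 3 of Ccr2-/- (red), Ccl2-/- (orange) and wild type (grey). The Ly-6Chi sum is lowest in Ccr2-/- and highest in wild type arrays, as is Irf4 except that Ccl2-/- replicate 1 is at the Ccr2-/- level, and the NK sum runs the other way.

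Genes whose level followed a called member most closely over the 9 arrays were picked by Pearson's r of log2 levels among 19071 genes with a mean intensity over 100, as a description of points that share arrays and genotypes. Irf4 was followed by Mocos (r = 0.994), Mrpl37 (0.990) and Fkbp1b (0.989). Irf5 was followed by Nfe2 (0.998), Nfam1 (0.997) and Ifngr2 (0.996), Irf7 by Ly6e (0.990), Oas2 (0.989) and Lgals3bp (0.986), and Irf9 by Sgpl1 (0.995), Tlr6 (0.995) and Pold4 (0.994). No gene stood in 2 of these groups of 3. Ly6e and Oas2 are interferon-induced, and Ifngr2 is the receptor chain described above.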

How the data were processed

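Processed intensity values of the 9 arrays were used as deposited, with 1 value per transcript cluster. Per the paper's methods, the authors analyzed the array images with dChip, and its version and normalization are not given in the sources used here. The values were taken as linear intensity. Probe symbols were those of the platform annotation, and looking them up in RefSeq by gene ID changed 0 of them. Clusters without exactly 1 symbol were not used, and a gene with several clusters was read from the brightest, which gave 19938 genes. A floor of 1, which 2 values lay below, preceded the log2 step. Genotype (3 levels) was modelled over the 9 arrays in limma 3.58.1 (R 4.3.3). Benjamini-Hochberg adjustment ran over all genes, and a call was an adjusted p under 0.05. The fit was tested on simulated data. Each p measures the spread between pooled arrays, not between mice, and 3 arrays per group limit the precision.

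The IRF genes and the gene lists were chosen with earlier results of these data known. Named genes were all 8 IRF genes, up to 3 list members with the smallest p among those past the test in Ccr2-/- over wild type, the 3 genes most like each called member, and the targeted genes. Genes outside this rule that make up a small count or complete a list, and the individual markers, were chosen after their values were seen. Alternatives were quantile normalization, centring, a filter at a mean intensity of 100, an intensity trend, an offset of 50, the mean of clusters, 6-array fits, a replicate block, each array left out, and the size limits.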

Additional observations from a re-analysis of the deposited data

Results flagged for a closer look

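The change against wild type differed between the knockouts for 3 IRF genes, tested as Ccr2-/- over Ccl2-/- with limma. Irf7 had a log2 difference of -0.64 (adjusted p = 0.0148), Irf5 of -0.42 (adjusted p = 0.0395) and Irf9 of -0.26 (adjusted p = 0.0480), and in each the 3 Ccr2-/- arrays lay below the 3 Ccl2-/- arrays. Over the 17 alternatives, Irf7 passed in 13, with adjusted p between 0.000969 and 0.0876, while Irf5 and Irf9 passed in 5 each, with adjusted p between 0.00581 and 0.324 for Irf5 and between 0.00372 and 0.566 for Irf9.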

How the results depend on the processing

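The calls of Irf4, Irf5, Irf7 and Irf9 in Ccr2-/- against wild type held under all 17 alternatives with limma, at adjusted p of at most 0.0273, and the count of 4 became 5 where Irf8 joined. In Ccl2-/- against wild type the count of 0 became 1 with an intensity trend (Irf9, adjusted p = 0.0338) and 1 by the size limits (Irf4), and it ranged between 0 and 1 with single arrays left out. In the direct comparison the count of 3 became 1 with quantile normalization, 0 after centring, 0 in the fit of 6 arrays and 1 with the replicate block, and it ranged between 0 and 4 with single arrays left out. The count in the 6-array fit rests on fewer samples, and the cause of the change was not tested for any of these settings.

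Signs turned only for small differences between Ccl2-/- and wild type: Irf1 became 0.20 with the mean of its clusters, Irf2 -0.097 and Irf7 -0.0583 after centring, and with single arrays left out Irf3 ranged between -0.0207 and 0.00138 and Irf7 between -0.0189 and 0.125, both turning without Ccl2-/- replicate 3. Same-numbered arrays deviated together with correlations between -0.18 and 0.562, and differently numbered arrays with correlations between -0.687 and 0.563. With 3 arrays per group these values cannot decide whether replicate numbers pair the arrays. The replicate block kept the 4 calls of Ccr2-/- against wild type. Counts of called genes in the pathway lists stayed within 1.5 times in 333 of 459 combinations of list, comparison and alternative.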
